A study of Mus musculus with 6 samples.

Results

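Immediate early and activity-dependent genes were described in the arcuate nucleus (ARC) of females with and without estrogen receptor alpha (ERα, encoded by *Esr1*). The 37 members were chosen by name, as transcription factors, phosphatases, feedback regulators and synaptic effectors that neurons or other cells induce after a stimulus, and all 37 are among the 24015 gene symbols of the deposited counts. The choice was made with earlier results of these data known. The 4 members *Npas4*, *Arc*, *Homer1* and *Nptx2* were taken as neuron-selective, and the other 33 as general stimulus genes that many cell types induce. Of the 37 members, 36 passed the filter on low counts (4 neuron-selective and 32 general). *Dusp5*, a phosphatase of ERK, did not pass and was at 0 to 0.43 CPM in the 6 libraries.

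RNA was sequenced from the microdissected ARC of adult female mice on a mixed background, given as CD-1, 129P2 and C57BL/6 in the sample labels and as CD-1 and 129P2 in the methods. The 3 control libraries came from Esr1fl/fl females, which carry the floxed alleles without Cre. The 3 mutant libraries came from Esr1fl/fl;Nkx2-1-Cre females, here called Esr1 Nkx2-1Cre, which carry the same floxed alleles. The *Nkx2-1* promoter drives Cre across the medial basal hypothalamus, so ERα is also removed in the neighbouring ventromedial hypothalamus (VMH) of the mutants. The mice were adults of 11 to 20 weeks by the study's methods and had free access to food and water. The study's figure legend for the ARC profiling gives a single age within that range. Neither the labels nor the methods used here mention a stimulus, the time of day of dissection or the phase of the estrous cycle. *Esr1* was at 48.5 to 64.5 CPM, that is counts scaled to a common library size after TMM normalization, in the controls and at 7.06 to 11.8 CPM in the mutants. Its log2 fold change was -2.59 with a standard error of 0.18, and its adjusted *p* was 0.000884 by edgeR's quasi-likelihood test.

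Immediate early genes are transcribed within minutes of a stimulus by factors that are already in the cell, such as CREB, serum response factor (SRF) and the ternary complex factors, and they need no new protein synthesis. Many of their products are transcription factors (FOS, EGR1, NR4A1, NPAS4) that drive later genes, and others, such as the dual-specificity phosphatases, switch the inducing kinases off again. *Npas4* and *Arc* respond mainly to calcium entry in active neurons, whereas *Fos*, *Egr1*, *Dusp1* and *Ier2* respond to growth factors, stress and tissue handling in many cell types. In the brain these transcripts are read as traces of recent activity.

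Sequences before the start sites of 5 members are shown because they carry the letters that the inducing factors are known to bind, in genes with different outcomes below. *Dusp1* and *Npas4* had the smallest p-values of the members in edgeR's quasi-likelihood test, and *Fos* is the reference gene of the class. *Zfp36* lacks the CREB letters, and *Errfi1* has them and did not differ. Each line gives the 200 bases before the start site (-200 to -1) in RefSeq on GRCm38.p6, 5′ to 3′ on the strand of the gene. Capitals mark TGACG, the core of the cAMP response element (CRE), or the full CRE TGACGTCA, the EGR site GCGNGGGCG, the CArG box (CC, a run of A or T, then GG, the SRF site) and TATAAA, each searched on both strands. The full CRE contains the core on both strands.
Dusp1 (chr17:26508473-26508672, minus strand): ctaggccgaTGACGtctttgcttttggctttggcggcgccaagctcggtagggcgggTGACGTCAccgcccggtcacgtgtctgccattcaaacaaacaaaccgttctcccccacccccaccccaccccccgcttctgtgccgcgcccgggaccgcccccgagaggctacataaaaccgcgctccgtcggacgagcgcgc
Npas4 (chr19:4989972-4990171, minus strand): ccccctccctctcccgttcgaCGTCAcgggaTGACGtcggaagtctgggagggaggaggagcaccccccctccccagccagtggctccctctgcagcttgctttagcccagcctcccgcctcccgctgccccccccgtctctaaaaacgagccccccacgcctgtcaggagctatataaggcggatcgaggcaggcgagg
Fos (chr12:85473690-85473889, plus strand): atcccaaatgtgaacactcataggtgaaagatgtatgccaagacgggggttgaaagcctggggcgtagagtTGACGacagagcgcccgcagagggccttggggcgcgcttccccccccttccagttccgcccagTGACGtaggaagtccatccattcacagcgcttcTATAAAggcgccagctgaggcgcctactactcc
Zfp36 (chr7:28379229-28379428, minus strand): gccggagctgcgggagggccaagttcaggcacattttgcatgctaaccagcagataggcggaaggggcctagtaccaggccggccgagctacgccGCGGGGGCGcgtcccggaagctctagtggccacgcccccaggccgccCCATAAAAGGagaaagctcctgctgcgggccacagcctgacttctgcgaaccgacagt
Errfi1 (chr4:150854870-150855069, plus strand): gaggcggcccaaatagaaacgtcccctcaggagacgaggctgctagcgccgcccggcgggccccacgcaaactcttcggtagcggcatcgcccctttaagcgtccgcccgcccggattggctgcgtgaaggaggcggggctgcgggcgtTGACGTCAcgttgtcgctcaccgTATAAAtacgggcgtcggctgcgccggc

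*Dusp1* has a full CRE from -143 to -136 and another core from -191 to -187. *Npas4* has a core on each strand, from -179 to -175 and from -169 to -165. *Fos* has cores from -129 to -125 and from -66 to -62 and TATAAA from -33 to -28. *Zfp36* has a CArG box from -58 to -49 and an EGR site from -105 to -97, and *Errfi1* a full CRE from -51 to -44 at its second listed start site. RefSeq promoters (250 bases before to 50 after a start) were matched for 28 of the 37 members. Those without a match were *Egr1*, *Egr3*, *Klf10*, *Dusp4*, *Ier2*, *Sik1*, *Trib1*, *Arc* and *Nptx2*. Sites outside these windows were not searched, so a motif missing here can still lie farther from the start. The CRE core was in 18 of these 28 (64.3%) against 23.0% of all 27025 genes with a promoter in the table. The full CRE was in 4 (14.3% against 2.03%), namely *Maff*, *Dusp1*, *Btg2* and *Errfi1*. The EGR site was in 9 (32.1% against 6.27%), the CArG box in 3 (10.7% against 1.81%), TATAAA in 5 (17.9% against 15.7%) and the AP-1 site TGANTCA in 1 (3.57% against 8.97%). The estrogen response element AGGTCANNNTGACCT was in none of the 28 windows and in 4 of all 27025. A sequence this rare would hardly be met in 28 windows, so its absence says nothing about regulation by ERα. Among the tested members, the median log2 fold change was 0.39 for the 17 with a CRE core and 0.38 for the 10 without one.

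Libraries held 11792440 to 17877137 counts on genes, and 3 counts correspond to 0.175 to 0.248 CPM, a floor that covers counting error only. ARC markers were present in every library, with *Pomc* at 145 to 267 CPM and *Tbx3* at 197 to 274 CPM. Control replicate 2 stood apart from the other libraries. The pars tuberalis, the pituitary tissue that lies under the ARC, was nearly missing from it, since its 4 markers summed to 5.47 CPM there and to 462 to 744 CPM in the other 5 libraries (*Cga* 3.26 CPM against 372 to 582, *Tshb* 1.92 against 70.6 to 140). The 6 endothelial markers summed to 76.2 CPM in this library and to 110 to 138 CPM elsewhere. The results below are therefore given with and without it.

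On a scale per exon length, *Egr1*, the zinc finger factor also known as Zif268, was the most abundant member in controls at 48.2 ± 24.1 RPKM (SD, n = 3), with 73.1, 25.0 and 46.4 RPKM in replicates 1, 2 and 3. *Klf6* followed at 25.7 ± 1.28 RPKM and *Jun*, a partner of FOS in AP-1, at 22.7 ± 3.25 RPKM. The control ranges of these 3 genes overlap, but within each control library *Egr1* exceeded *Klf6* and *Klf6* exceeded *Jun*. In replicates 1, 2 and 3, *Klf6* was at 27.1, 24.8 and 25.1 RPKM and *Jun* at 26.4, 20.2 and 21.7 RPKM. The gap was small between *Egr1* and *Klf6* in replicate 2 and between *Klf6* and *Jun* in replicate 1. *Errfi1*, a feedback inhibitor of EGFR, was at 17.0 ± 2.92 RPKM, below every *Klf6* and *Jun* value. *Fos* itself was at 3.43 ± 1.88 RPKM, *Arc* at 2.33 ± 0.847 and *Npas4* at 1.18 ± 0.453. The control ranges of *Fos* and *Arc* overlap, but *Fos* was above *Arc* within each control library. The library kit does not mark strand, and *Egr1*, *Jun* and *Jund* share exon sequence with a gene on the opposite strand (*Gm17507*, *BC042782* and *Gm11175*), so reads of these pairs cannot be told apart.

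The first question was whether the members differed between Esr1 Nkx2-1Cre and control ARC. The members leaned towards higher levels in the mutants, with a positive log2 fold change in 27 of 36 and a median of 0.38 against 0.0036 over all 15236 genes tested. In 12 of the 36 (33.3%) every mutant library was above every control library, against 7.88% of all genes, and in none was every mutant below every control, against 7.88% of all genes. These counts depend on the choice of members. The stimulus-induced gene *Nr4a2*, lower in every mutant, was left out of the list and is described below. Before adjustment, 11 members were higher at *p* under 0.05 in edgeR's quasi-likelihood test, where the share over all genes is 4.84%, and none was lower, where the share is 4.01%. All 11 are among the 12. After adjustment over all genes 1 member was called higher, *Dusp1*, against 0.0591% of all genes, and none lower, against 0.0591%. By DESeq2, 2 members passed, *Dusp1* and *Npas4*, against 0.642% of all genes called higher. An exact two-sided permutation test of any single gene cannot go below *p* = 0.1 with 3 libraries against 3. In such bulk RNA, a change in the number of cells of a type and a change in RNA per cell cannot be told apart.

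**Figure D1:**
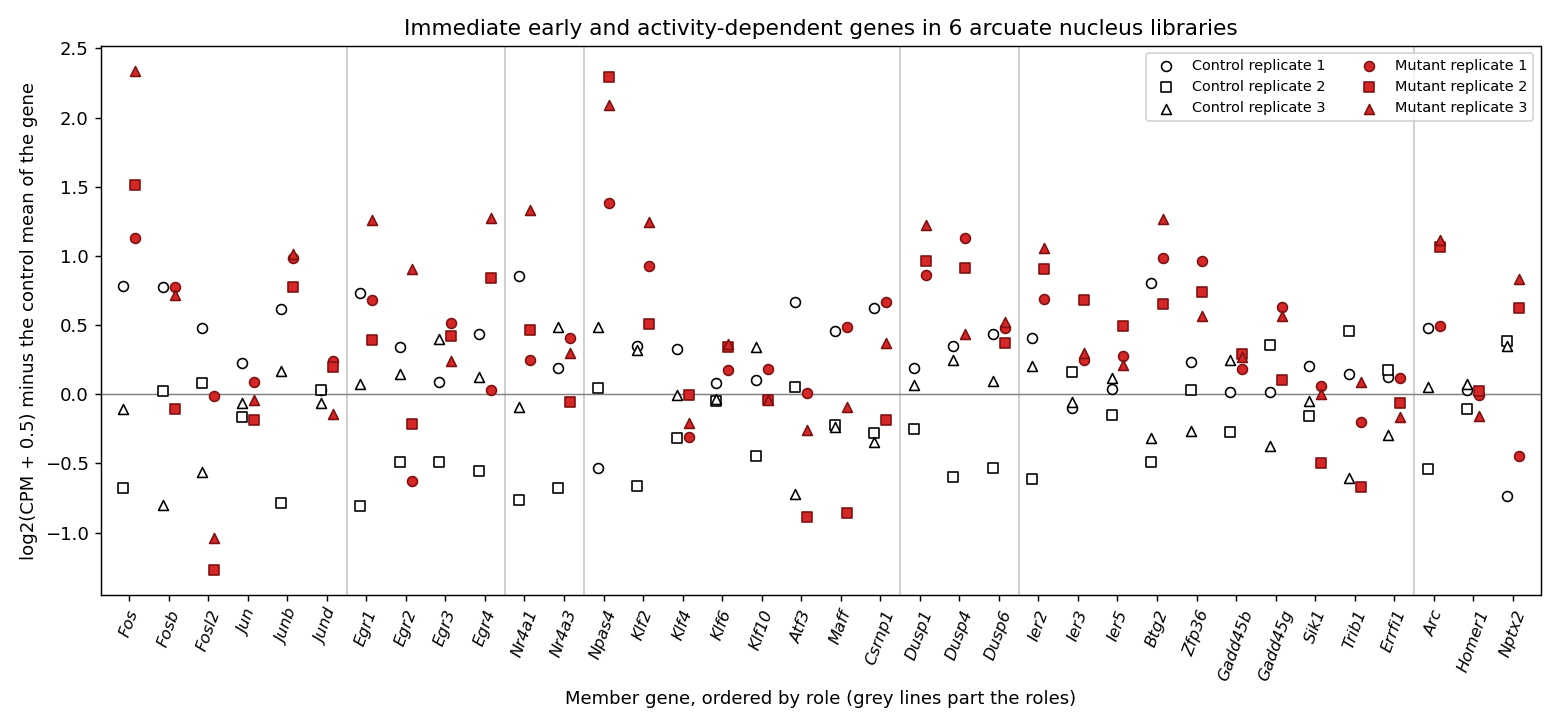
Level of the 36 tested members in each library, as log2(CPM + 0.5) minus the control mean of the gene; open symbols are controls, red symbols mutants, and the shape gives the replicate number. Control replicate 2 (open squares) is the lowest control for 23 of the 36 members, and *Npas4* and *Dusp1* show a wide gap between the genotypes.

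The MAP kinase phosphatases carried the one call. *Dusp1*, which dephosphorylates p38, JNK and ERK and is among the fastest genes induced by stress and glucocorticoids, measured 23.5, 17.1 and 21.4 CPM in controls (replicates 1, 2 and 3, the order used throughout) and 37.7, 40.5 and 48.5 CPM in mutants. The lowest mutant library lay well above the highest control. The level rose 2.05-fold (log2 fold change 1.03, standard error 0.14, adjusted *p* = 0.0313 by edgeR's quasi-likelihood test, 4.88e-07 by DESeq2). Its NCBIM37 position is chr17:26642535-26645464, minus strand, and the promoter with the full CRE is shown above. The call did not hold by limma voom (adjusted *p* = 0.0545) or without control replicate 3, mutant replicate 2 or mutant replicate 3 (edgeR's quasi-likelihood test, adjusted *p* = 0.101, 0.133 and 0.140), while the log2 fold change stayed between 0.91 and 1.13 whichever library was left out. *Dusp4*, a nuclear phosphatase of ERK, was at 3.48, 1.57 and 3.23 CPM in controls and 6.35, 5.40 and 3.73 CPM in mutants (log2 fold change 0.91, unadjusted *p* = 0.0202, edgeR). Its genotypes did not overlap, but mutant replicate 3 exceeded control replicate 1 by little, and the gene was not called. *Dusp6*, the cytoplasmic ERK phosphatase, ran from 10.6 to 21.2 CPM in controls and from 20.3 to 22.6 CPM in mutants, with an overlap set by control replicate 1.

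Among the neuron-selective members, *Npas4* had the largest fold change of all 36. This activity-dependent factor, which regulates inhibitory synapses, was at 2.41, 3.84 and 5.38 CPM in controls and 10.5, 20.1 and 17.4 CPM in mutants. Every mutant library exceeded the highest control, mutant replicate 1 by the smallest margin. The fitted fold change was 4.15 (log2 fold change 2.05, standard error 0.32), with an adjusted *p* of 0.0650 in edgeR's quasi-likelihood test, 5.38e-08 in DESeq2 and 0.00285 in edgeR with the replicate number as a block, so the call depends on the test. Its NCBIM37 position is chr19:4984355-4989971, minus strand.

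*Arc*, whose product removes AMPA receptors from synapses, was at 9.72, 4.54 and 7.10 CPM in controls and 9.82, 14.8 and 15.3 CPM in mutants (log2 fold change 0.91, unadjusted *p* = 0.0102, adjusted *p* = 0.356, edgeR's quasi-likelihood test). Mutant replicate 1 lay almost level with control replicate 1, and the separation rests on the other 2 mutants. *Nptx2*, a secreted pentraxin that clusters AMPA receptors, was at 4.69, 10.8 and 10.5 CPM in controls and 5.86, 12.8 and 14.9 CPM in mutants, and was lowest in replicate 1 of both genotypes. *Homer1*, a postsynaptic scaffold, stayed between 53.4 and 62.7 CPM (log2 fold change -0.05, standard error 0.09). Only its short isoform is known as an immediate early transcript, and counts per gene do not separate the isoforms.

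The AP-1 subunits had fold changes of both signs, and none was called. *Fos* was at 13.0, 4.42 and 6.81 CPM in controls and 16.7, 22.0 and 39.2 CPM in mutants, with a log2 change of 1.69 and a standard error of 0.51 (unadjusted *p* = 0.0181, adjusted *p* = 0.418, edgeR's quasi-likelihood test). Both genotypes spread more than 2-fold, by 2.94-fold among controls and 2.35-fold among mutants, and the gap between control replicate 1 and mutant replicate 1 was small. *Junb*, a partner of FOS, was at 2.81, 0.756 and 1.94 CPM in controls and 3.80, 3.20 and 3.86 CPM in mutants (log2 fold change 0.99, unadjusted *p* = 0.0338). Its values rest on 13 to 58 counts a library. *Fosl2* (25.3 to 86.2 CPM, log2 fold change -0.74), *Fosb* (4.02 to 13.0 CPM, 0.39), *Jun* (63.2 to 84.2 CPM, -0.05) and *Jund* (16.9 to 22.1 CPM, 0.11) overlapped between genotypes. *Fos* and *Fosl2*, which form the same kind of dimer with JUN proteins, thus had estimates of opposite sign. That of *Fosl2* had a standard error of 0.45 and an unadjusted *p* of 0.160 (edgeR's quasi-likelihood test), so a fall is not shown.

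The 4 EGR factors and the 2 NR4A receptors in the list had positive fold changes and overlapping genotypes. *Egr1* was at 227, 77.5 and 144 CPM in controls and 219, 179 and 326 CPM in mutants (log2 fold change 0.69, standard error 0.47, unadjusted *p* = 0.202, edgeR). Control replicate 1 exceeded 2 of the 3 mutants, and control replicate 2 lay below all mutants. *Egr4* ran from 0.931 to 2.35 CPM in controls and from 1.65 to 4.60 CPM in mutants (log2 fold change 0.93, unadjusted *p* = 0.0596), *Egr3* from 8.38 to 15.9 and from 14.2 to 17.3 CPM (0.37) and *Egr2*, known from Schwann cell myelination, from 3.14 to 5.96 and from 2.81 to 9.06 CPM (0.16). The orphan nuclear receptor *Nr4a1* ran from 5.41 to 17.7 CPM in controls and from 11.4 to 24.7 CPM in mutants (0.64), and *Nr4a3* from 2.97 to 7.24 and from 4.84 to 6.85 CPM (0.17). *Egr2* and *Nr4a3* changed sign without control replicate 2 (log2 fold change -0.07 and -0.13).

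Of the other induced transcription factors, 2 Krüppel-like factors separated the genotypes beside *Npas4*. *Klf6* was at 114, 104 and 106 CPM in controls and 122, 137 and 139 CPM in mutants. This was a small but tight difference (log2 fold change 0.30, standard error 0.08, unadjusted *p* = 0.00564, adjusted *p* = 0.295, edgeR's quasi-likelihood test). *Klf2*, an endothelial factor induced by flow that is also present in other cells, was at 3.08, 1.28 and 3.01 CPM in controls and 4.87, 3.52 and 6.20 CPM in mutants (log2 fold change 0.99, unadjusted *p* = 0.0191). The other 5 (*Klf4*, *Klf10*, *Atf3*, *Maff* and *Csrnp1*) overlapped, with log2 fold changes from -0.49 to 0.28. *Atf3*, a marker of cell stress and axon injury, ran from 3.73 to 10.6 CPM in controls and from 3.27 to 6.52 CPM in mutants.

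Of the 10 feedback and growth control genes, 4 separated the genotypes. *Zfp36*, which encodes the RNA-binding protein tristetraprolin that shortens the life of cytokine mRNAs, was at 8.04, 6.92 and 5.52 CPM in controls and 13.6, 11.6 and 10.3 CPM in mutants (log2 fold change 0.79, standard error 0.19, unadjusted *p* = 0.00175, adjusted *p* = 0.180 by edgeR's quasi-likelihood test and 0.0586 by DESeq2). It was the third member by p-value, and its promoter is the one shown with a CArG box and an EGR site. *Ier2* was at 1.81, 0.640 and 1.51 CPM in controls and 2.31, 2.76 and 3.13 CPM in mutants (log2 fold change 1.07, unadjusted *p* = 0.0203), on 11 to 47 counts a library.

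*Ier5* was at 21.8, 19.1 and 23.1 CPM in controls and 25.9, 30.2 and 24.7 CPM in mutants (log2 fold change 0.34, unadjusted *p* = 0.0212, edgeR). *Ier3* was at 2.35, 2.91 and 2.44 CPM in controls and 3.14, 4.40 and 3.26 CPM in mutants (log2 fold change 0.49, unadjusted *p* = 0.0846). The 3 IER genes, rapid response genes whose products include regulators of heat shock factor (*Ier5*) and survival (*Ier3*), were thus all separated by genotype and none was called. *Btg2*, an antiproliferative gene and p53 target, was at 21.3, 8.38 and 9.54 CPM in controls and 24.3, 19.2 and 29.5 CPM in mutants (log2 fold change 0.90, unadjusted *p* = 0.0565). Its control replicate 1 reached into the mutant range, and without that library the gene was called (log2 fold change 1.44, adjusted *p* = 0.0341, edgeR's quasi-likelihood test). Stress-induced *Gadd45b* (0.349 to 0.754 CPM) and *Gadd45g* (5.52 to 11.6 CPM) both had a log2 fold change of 0.44. *Sik1*, a kinase that restrains CREB coactivators, *Trib1*, a pseudokinase, and *Errfi1* had log2 fold changes of -0.14, -0.30 and -0.05, with overlapping genotypes.

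**Figure D2:**
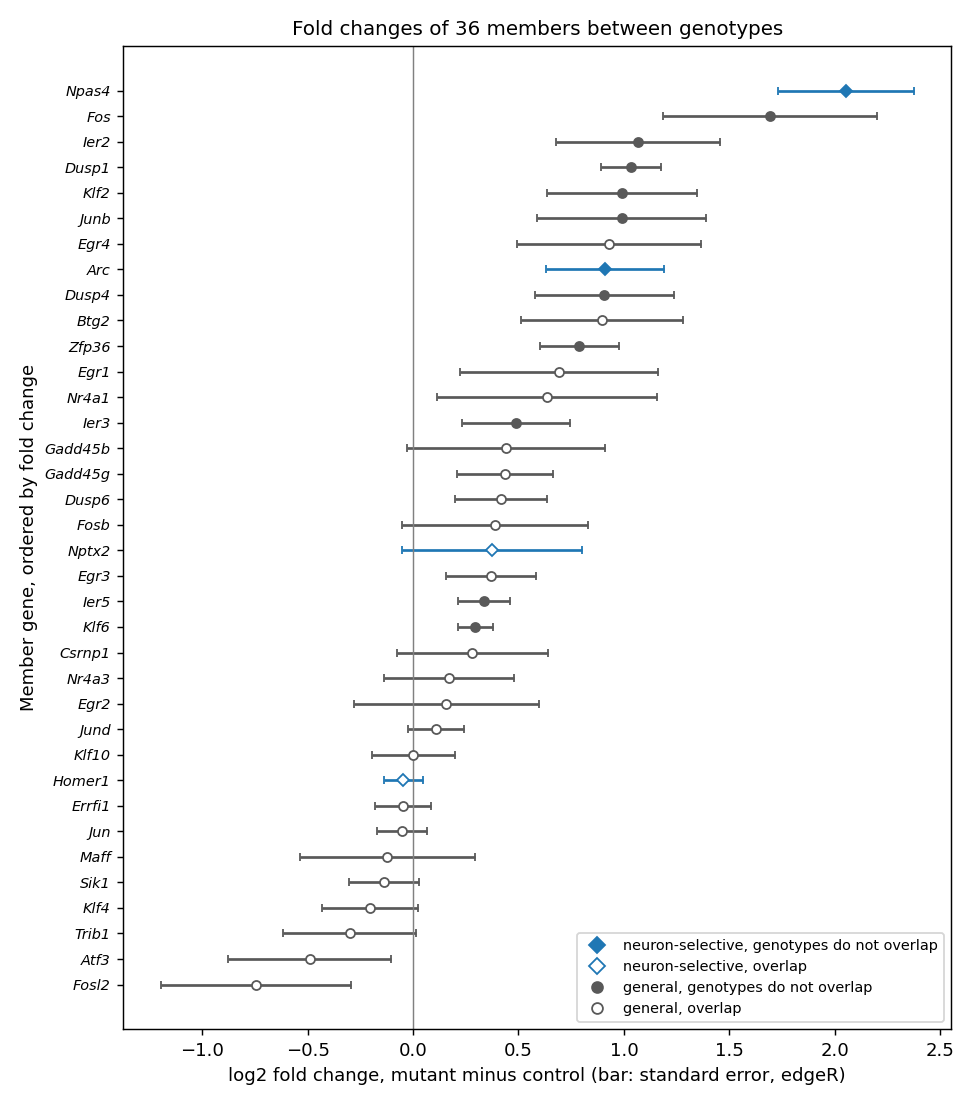
Log2 fold change of mutant over control for the 36 tested members with its standard error from edgeR's quasi-likelihood fit; blue diamonds are neuron-selective members, grey circles general stimulus members, and filled symbols mark the 12 members whose genotypes do not overlap. *Npas4* lies highest at 2.05, *Dusp1* has one of the shortest bars among the large changes, and all filled symbols lie above 0.

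The design of the list asks how the neuron-selective members compare with the general stimulus genes. The 4 neuron-selective members had a median log2 fold change of 0.64, with 2 separated (*Npas4* and *Arc*), and the 32 tested general members a median of 0.38, with 10 separated. The difference between the classes was not tested, and the neuron-selective median rests on 4 genes that run from -0.05 to 2.05.

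The order of the libraries in each class was described without a test. Averaged over the neuron-selective members as the deviation from the control mean in log2(CPM + 0.5), controls were at -0.19, -0.05 and 0.24 and mutants at 0.36, 1.00 and 0.97. For these the genotypes did not overlap, and replicate 1 was the lowest library of each genotype. The separation of this mean depended on *Npas4*. Averaged over the other 3 (*Arc*, *Homer1* and *Nptx2*) the genotypes overlapped, with mutant replicate 1 at 0.01 and control replicate 3 at 0.16. Averaged over the general members, controls were at 0.34, -0.28 and -0.06 and mutants at 0.41, 0.20 and 0.50. Control replicate 1 thus lay above mutant replicate 2 and close to mutant replicate 1. It was the highest control for 23 of the 32 general members (71.9%) but for 1 of the 4 neuron-selective members, while it is the highest control for 31.5% of all genes. Control replicate 2 was the lowest control for 21 of the 32 (65.6%) and for 2 of the 4 neuron-selective members, against 35.5% of all genes. *Arc* had control replicate 1 highest and control replicate 2 lowest, the order of most general members.

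Some markers of other cells had similar orders. The endothelial markers averaged 0.32, -0.43 and 0.11 in controls and 0.35, 0.15 and 0.25 in mutants. This average places control replicate 2 lowest and control replicate 1 among the mutants, as for the general members. By single gene, control replicate 2 was the lowest library for 3 of the 6 markers. None of the 6 endothelial markers separated the genotypes, and none is at 0. Of the most abundant, *Kdr* was at 9.13 CPM in control replicate 2 against 27.5 to 41.9 CPM elsewhere. *Flt1* had another order, from 42.2 CPM in mutant replicate 2 to 58.3 CPM in control replicate 3. The 5 markers of the VMH, which can be included in an ARC dissection, summed to 73.2, 156 and 111 CPM in controls and 71.9, 177 and 201 CPM in mutants. This sum was lowest in replicate 1 of both genotypes, as for *Nptx2* and *Npas4*. Not all 5 markers had this order. *Cbln1* did (11.7 and 18.3 CPM in replicate 1), while *Tac1* was lowest in control replicate 3 (40.1 CPM) and mutant replicate 2 (28.1 CPM). The part of these cells in the levels of the members was not tested.

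**Figure D3:**
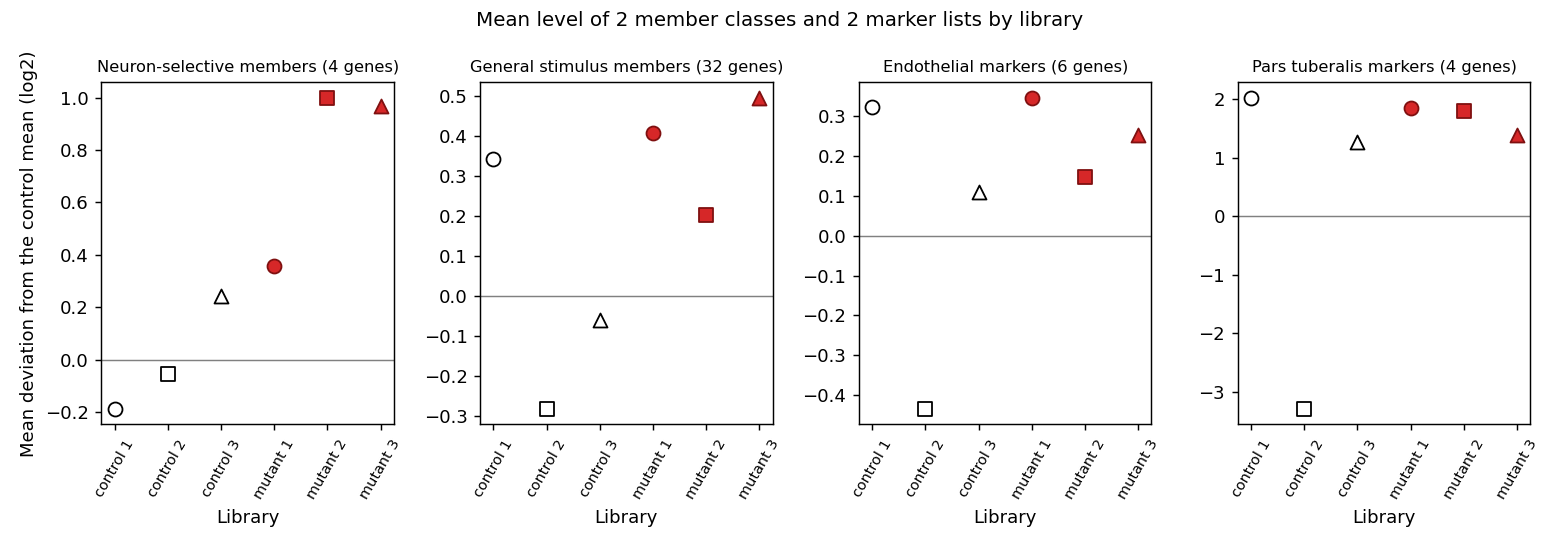
Mean deviation from the control mean, in log2(CPM + 0.5), of the 4 neuron-selective members, the 32 general stimulus members, the 6 endothelial markers and the 4 pars tuberalis markers in each library; open symbols are controls, red symbols mutants, and each panel has its own vertical scale. Control replicate 2 is lowest in all panels except that of the neuron-selective members, where control replicate 1 lies at -0.19 and control replicate 2 at -0.05.

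By their median, the members varied more within a genotype than all genes tested did. The ratio of the highest to the lowest library had a median of 2.07 among controls and 1.48 among mutants for the 36 members, against 1.25 and 1.23 over all genes. Genes were not matched for level in this comparison, and low counts widen the ratio. Well-counted members differed from each other, with ratios among controls of 2.92 for *Egr1* and 1.09 for *Klf6*. Control replicate 2 was the lowest of all 6 libraries for 19 of the 36 members.

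Without control replicate 2, the members' median log2 fold change was 0.27, against 0.0063 over all genes then tested, and 25 of 36 were positive. The general median was 0.23 (0.38 with all libraries) and the neuron-selective median 0.62 (0.64). Of the 36 fold changes, 28 (77.8%) were lower than with all libraries, against 50.8% of all genes tested in both fits. The share was alike in the classes, 25 of 32 general and 3 of 4 neuron-selective members. Of the latter *Arc* went from 0.91 to 0.66 and *Nptx2* from 0.37 to 0.57, and their middle values set the median of the 4. *Npas4* stayed at a log2 fold change of 2.05 and *Zfp36* at 0.80, *Fos* went to 1.39, *Egr1* to 0.38, *Nr4a1* to 0.31 and *Ier2* to 0.72. *Dusp1* remained called (log2 fold change 0.91, adjusted *p* = 0.0168, edgeR's quasi-likelihood test). At an unadjusted *p* under 0.05, 8 members were then higher, against 4.43% of all genes, and 7 of them are among the 11 above. With 2 controls, 13 members separated the genotypes, against 12.2% of all genes, the 12 above and *Gadd45g* (log2 fold change 0.65).

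**Figure D4:**
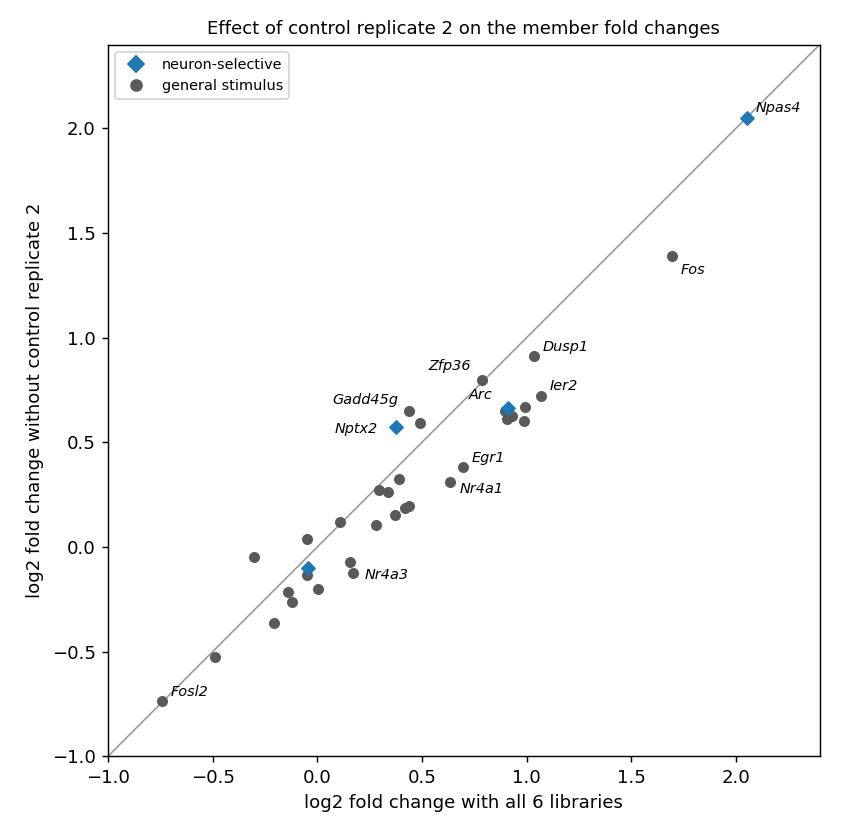
Log2 fold change of each tested member with all 6 libraries (horizontal axis) and without control replicate 2 (vertical axis); blue diamonds are neuron-selective members, grey circles general stimulus members, and the line marks equal values. *Npas4* lies on the line within the size of its symbol, and 28 of the 36 fold changes are lower without the library, those of *Fos*, *Egr1*, *Nr4a1* and *Ier2* among them.

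Glial markers also differed between the genotypes. All 7 oligodendrocyte markers reported here were higher in every mutant, with sums of 344 to 647 CPM in controls and 845 to 875 CPM in mutants (*Mbp* 201 to 376 against 504 to 514 CPM, *Cnp* 78.0 to 126 against 146 to 158 CPM). Their median log2 fold change was 0.93, against 0.38 for the members, and 1 was called higher by edgeR's quasi-likelihood test and 4 by DESeq2. Of the 7 microglia markers 3 separated, with sums of 184 to 202 CPM against 244 to 252 CPM (*Csf1r* 44.5 to 62.7 against 66.2 to 69.3 CPM). The microglia median was 0.34, with none called by edgeR and 1 called higher by DESeq2. None of these 14 markers is at 0. The 6 neuron markers overlapped, from 3364 to 4265 CPM in controls and from 3635 to 5042 CPM in mutants (*Snap25* 2402 to 3092 and 2688 to 3849 CPM), as did the 6 astrocyte markers (1389 to 1857 and 1558 to 1917 CPM) and the 6 ARC markers, while 1 of 6 tanycyte markers (*Vim*) lay above and 1 of 5 VMH markers (*Tac1*) below the controls in every mutant. *Dusp1*, *Klf2*, *Klf6*, *Zfp36* and the IER genes are known in glia and vessels as well as in neurons, and the part of glial RNA in their levels was not tested.

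Other genes of the same pathways were counted next. Of 35 further stimulus-induced genes, 31 were tested, with a median log2 fold change of 0.13, and none was called by edgeR's quasi-likelihood test. In 5 (16.1%) every mutant lay above every control, against 7.88% of all genes, and in 1 every mutant lay below. The difference from the members was not tested. That one, *Nr4a2*, which encodes the NURR1 receptor of dopamine neurons and was left out of the list of members, was at 32.2, 29.6 and 23.7 CPM in controls and 11.8, 14.4 and 7.99 CPM in mutants (log2 fold change -1.32, standard error 0.21, adjusted *p* = 0.0643 by edgeR's quasi-likelihood test and 9.91e-07 by DESeq2). Its relatives *Nr4a1* and *Nr4a3* had positive fold changes. Among the separated genes, the kinase *Sgk1*, a glucocorticoid target, had a log2 fold change of 0.41 (unadjusted *p* = 0.00588, edgeR), *Cebpd* 0.83 (0.0139), the CREB family member *Crem* 0.37 (0.0515) and *Bhlhe40*, also a clock gene, 0.19 (0.0880). *Bdnf*, the neurotrophin and a known target of NPAS4, is the fifth separated gene and was singled out after its values were seen. It was at 2.48, 14.5 and 9.61 CPM in controls and 19.6, 17.1 and 24.3 CPM in mutants (log2 fold change 1.19, unadjusted *p* = 0.0970), with control replicate 1 far below the other controls.

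Of the kinases and constitutive factors that act upstream of the members, all 21 were tested, with a median log2 fold change of -0.03, none above in every mutant and 3 below, namely *Mkl1*, an SRF coactivator (-0.24, unadjusted *p* = 0.0447, edgeR), *Map2k1*, the ERK kinase MEK1 (-0.20, 0.0538), and *Camk4*, a calcium-dependent CREB kinase (-0.20, 0.0768). Of 6 heat shock genes, which rise with handling and protein stress, none was higher in every mutant. *Hspa1a* was at 8.24, 8.90 and 6.10 CPM in controls and at 5.45, 4.46 and 5.26 CPM in mutants (log2 fold change -0.62, unadjusted *p* = 0.0122, edgeR). Of 7 red cell genes, the 6 globin genes are listed at 0 in every library and carry no information on blood, and *Alas2*, the only one measured, was at 3.60 to 5.91 CPM.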

How the data were processed

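Amplified cDNA (NuGEN Ovation RNA-Seq System V2, which does not mark strand) of 3 control and 3 mutant ARC samples was sequenced as single-end reads. Per the submitters' processing notes and methods, the authors mapped reads with TopHat2 2.1.0 and deposited HTSeq 0.6 counts per gene, without normalization. The notes name mm9, the methods NCBI37/mm10, so positions were taken by symbol from GENCODE on NCBIM37, whose exon lengths also gave RPKM. Promoters are those of RefSeq on GRCm38.p6.

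Samples were grouped by the genotype in their labels. With R 4.3.3, mutants were compared with controls by edgeR 4.0.16 (TMM, default low-count filter, robust quasi-likelihood test, Benjamini-Hochberg adjustment over 15236 genes, threshold 0.05). CPM is the count scaled by the TMM library size. Scripts were tested on simulated counts. The alternatives were RLE, library size alone, DESeq2 1.42.0 (the study's tool), limma 3.58.1 voom, other filters, a replicate block and leaving out each library. Members and lists were chosen with earlier results of these data known. All 37 members are named, with values per library where genotypes did not overlap or unadjusted p was under 0.05. Of each pathway list, up to 5 genes with the smallest p among the separated were named, and of each marker list up to 2 of the highest level. Pairs of libraries differed by a chi-square of 6.90 to 31.2 per degree of freedom, so none was a copy. The sources used here do not say whether a library came from 1 female, so p-values measure the spread between libraries. Reads carried no molecular identifiers, so floors cover counting error only. One oligodendrocyte marker is not reported here and was left out of that list.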

Additional observations from a re-analysis of the deposited data

How the results depend on the processing

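The count of members called higher, 1 with edgeR, was 2 by DESeq2, 2 with a minimum of 1 count in any library, 2 with the replicate block (*Dusp1* and *Npas4* in each) and 0 by limma voom, and ranged from 0 to 2 when each library was left out. It was 1 with RLE, library size alone and a minimum of 10 counts in every library. No member was called lower under any of the 13 alternatives. Over all genes, 18 were called, against 191 by DESeq2, 123 with the replicate block, 106 with the minimum of 1 count and 7 to 46 over the libraries left out. The members' median log2 fold change, 0.38, ranged from 0.27 to 0.45 over the libraries left out. Fold changes of 8 members, none of them called, changed sign. *Klf10* went from 0.0016 to -0.0017 with RLE, -0.0049 by DESeq2, -0.0078 with the minimum of 1 count and -0.20 to 0.19 over libraries left out. The ranges over libraries left out were -0.13 to 0.067 for *Jun*, -0.56 to 0.21 for *Maff*, -0.18 to 0.039 for *Errfi1*, -0.49 to 0.45 for *Egr2*, -0.13 to 0.45 for *Nr4a3*, -0.24 to 0.022 for *Sik1* and -0.099 to 0.0060 for *Homer1*. The cause was not tested. Libraries with the same replicate number deviated together with r = 0.31, 0.049 and 0.019 for replicates 1, 2 and 3. Libraries with different numbers were not correlated as a reference, so these values cannot show whether the samples were paired, and pairing was not tested. The replicate block changed no call of a member other than that of *Npas4*. At 0.175 to 0.248 CPM for 3 counts, depth limits *Dusp5* and *Gadd45b* most.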
